A study of Oryctolagus cuniculus with 57 samples.

Results

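The 8 genes described here belong to the intestinal mucus barrier and were looked for among the probes of a rabbit microarray: the membrane mucins MUC12 and MUC13, and the goblet cell genes AGR2, AGR3, MUC2, TFF3, FCGBP and CLCA1. A gene was taken up when the gene name, the accession of a probe or the probe tables of the study led to its symbol. Of the 8 genes, 5 had at least 1 probe, out of 9586 named genes on the array: MUC12, MUC13, AGR3, AGR2 and CLCA1. No probe was matched to MUC2, TFF3 or FCGBP, which are not analysed here. The 5 genes have 14 probes, all of them in the deposited value table, and all 14 stood well above background on all 57 arrays with no saturated spot.

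The mucus of the small intestine is made by goblet cells, which release the gel-forming mucin MUC2 with small companion proteins. Membrane mucins are another kind of mucin: they stay anchored in the apical membrane of epithelial cells, mainly of enterocytes, and form part of the glycocalyx over the microvilli. AGR2 is a protein disulfide isomerase of the endoplasmic reticulum which, in mice, is needed to make MUC2, and AGR3 is its close paralog. CLCA1 is a secreted metalloprotease of goblet cells that, in mice, cleaves MUC2 in the mucus.

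The rabbits were young commercial hybrids (PS Hyplus 19 × PS Hyplus 39), male or female, whose ileum was sampled at day 35, the day of weaning, or at day 49. In all groups the feces that the mother left in the nest were removed. In NF nests nothing replaced them, in FF nests pellets from unrelated, non-lactating does replaced them, and in FFab nests these pellets came from the same does after tetracycline and tiamulin had been added to their drinking water. RNA of each rabbit was labelled with 1 dye and hybridized to 1 array. The groups of day 35 held 10 FF, 9 NF and 10 FFab rabbits, those of day 49 had 9 each, which makes 56 arrays. NF rabbit lap78 of day 35 had an array too, which is given apart. The study set aside 1 array as an outlier, and its text does not name the rabbit. That it was lap78 was read from a clustering plot of its supplement. The labels name the rabbits but not their nests, so rabbits were treated as independent, and with littermates among them the errors and p-values would be too small. A slide carried 6 or 7 of the arrays, and there were 9 slides. Between 66.0% and 83.7% of the spots of an array stood well above background.

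Levels are log2 values of the authors' background-subtracted signal after quantile normalization. A level belongs to its probe, so levels of different genes are not compared. Differences were fitted with limma over 7968 genes, each read from 1 probe, and a gene is said to have risen or fallen when its Benjamini-Hochberg adjusted p was under 0.05 and its log2 difference beyond 0.5. Errors of differences are standard errors, and intervals are 95% intervals. The ileum was ground whole, so fewer cells of a type and less RNA per cell cannot be told apart.

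The probes that carry the results are 60 bases long and are printed 5′ to 3′ as the array lists them. MUC12 and MUC13 have 1 probe each, so that each array result on them rests on a single sequence. That of MUC13 lies on chr14:94143686-94143745 of the rabbit build oryCun2, plus strand, while the design gives no position for that of MUC12. In the current RefSeq annotation (mOryCun1.1) MUC12 lies between its relatives MUC3A and MUC17. No probe was matched to these genes, and whether their transcripts bind the MUC12 probe was not tested. The study also measured MUC12 by quantitative RT-PCR and reports a significant Spearman correlation with its array values. Those measurements were not used here.
MUC12: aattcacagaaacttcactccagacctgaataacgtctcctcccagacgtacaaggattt
MUC13: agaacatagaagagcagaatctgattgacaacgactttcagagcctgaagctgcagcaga

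AGR2 has 5 probes and AGR3 has 4, none with a position in the design. The 4 AGR3 probes are tiled along the transcript, each sharing 40 bases with the next. Of the 5 AGR2 probes, some differ by a shift of a single base and share 59 bases, so the probes of a gene are not independent measurements. Because the genes are paralogs, the best ungapped match between a probe of each is shown here, with the bases that differ in capitals. Over the 45 bases that lie opposite each other, 32 were the same and 13 differed (71.1% the same).
AGR2, A_04_P011042: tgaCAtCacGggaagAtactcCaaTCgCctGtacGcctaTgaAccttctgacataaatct
AGR3, A_04_P055910: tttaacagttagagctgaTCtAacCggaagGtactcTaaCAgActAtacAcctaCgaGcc

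The AGR3 probe printed is the one used for the gene. The AGR2 values come from another probe of that gene, which shares no stretch with it, and the CLCA1 values from 1 of 3 probes that follow each other on chr13:78351993-78352173 (oryCun2), minus strand.
AGR2, probe used: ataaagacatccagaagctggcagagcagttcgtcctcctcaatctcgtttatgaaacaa
CLCA1, probe used: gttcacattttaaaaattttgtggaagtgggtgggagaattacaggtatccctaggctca

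Both membrane mucins rose from day 35 to day 49 in FF rabbits, MUC12 by 2.78-fold and MUC13 by 1.78-fold. AGR3 rose with them by 1.95-fold, while AGR2 and CLCA1 had age differences near 0. In NF and FFab rabbits none of the 5 genes passed. Thus 3 of 5 genes rose in FF, beside 2.81% of all 7968 genes that rose and 4.30% that passed in either direction in that comparison. In NF, 0.0377% of the genes passed (0.0251% higher) and in FFab 0.0753%, so that few genes of any kind did so there. By limma's unadjusted p under 0.05, 3 of 5 members stood out in FF, 0 in NF and 1 (AGR3) in FFab, beside 21.1%, 6.04% and 8.43% of all genes. The 5 genes were picked with such results known, and their share is a description.

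**Figure D1:**
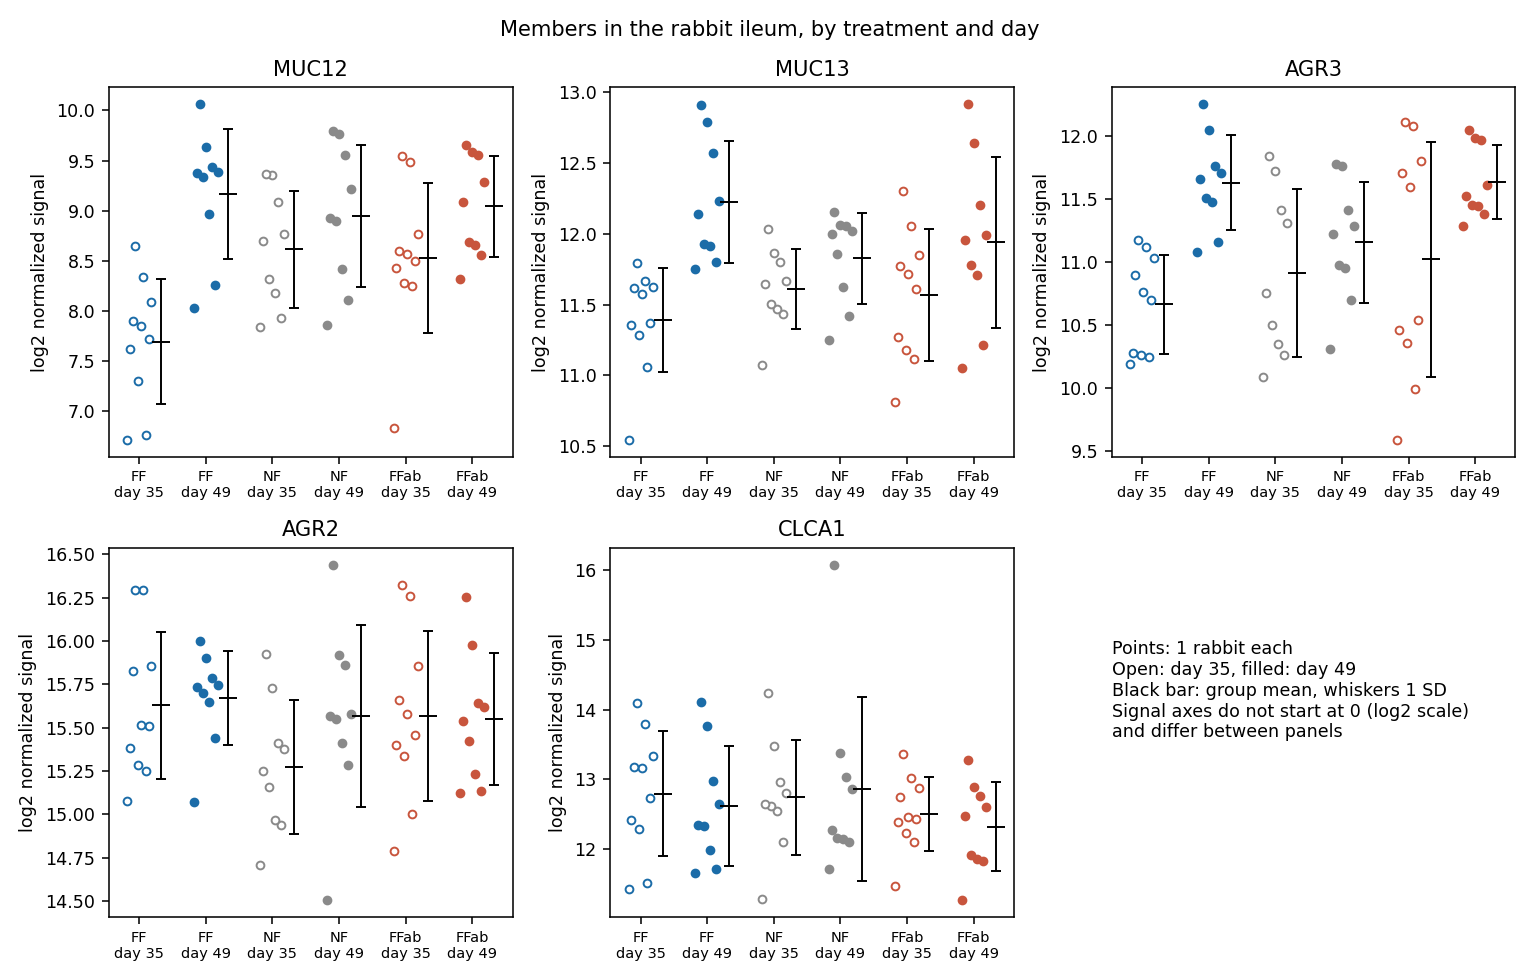
Levels of the 5 genes (y axis, log2 normalized signal) in the 6 groups of treatment and day (x axis), 1 point per rabbit, open at day 35 and filled at day 49, with the group mean and 1 SD in black. In FF, 8 of 9 day 49 rabbits lie above all day 35 rabbits for MUC13, and 7 of 9 for MUC12 and for AGR3. AGR2 and CLCA1 overlap widely. How many of all genes reach such counts was not computed.

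MUC12, a very large mucin with a serine- and threonine-rich stalk, ranged in FF from 6.71 to 8.64 at day 35 (median 7.78) and from 8.03 to 10.06 at day 49 (median 9.38). The ranges overlapped, but 7 of 9 older rabbits lay above the highest younger one. How many of all genes reach this count was not computed. The fitted difference was 1.47 ± 0.29 (interval 0.89 to 2.06, limma, adjusted p = 0.000726), the 56th smallest p of 7968 genes. In NF, the range was 7.84 to 9.37 at day 35 (median 8.69) and 7.86 to 9.80 at day 49 (median 8.92). The difference there was 0.33 ± 0.30 (limma, adjusted p = 0.995), with an interval from -0.26 to 0.93. In FFab, levels ran from 6.83 to 9.54 at day 35 (median 8.54) and from 8.32 to 9.66 at day 49 (median 9.09). The FFab difference was 0.52 ± 0.29 (limma, adjusted p = 0.646), so that neither NF nor FFab excluded a rise of over 1.9-fold.

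The groups differed more at day 35 than at day 49. At day 35 the mean of MUC12 was 7.69 ± 0.63 (SD, n = 10) in FF, against 8.62 ± 0.58 (n = 9) in NF and 8.52 ± 0.75 (n = 10) in FFab. At day 49 the means were 9.17 ± 0.65 in FF, 8.95 ± 0.71 in NF and 9.04 ± 0.50 in FFab (SD, n = 9 each). FF lay below NF at day 35 by 0.92 ± 0.29 (limma, unadjusted p = 0.00246, adjusted p = 0.306). It lay below FFab at day 35 by 0.83 ± 0.28 (limma, unadjusted p = 0.0048, adjusted p = 0.428). Neither difference passed, and both rest on the same FF rabbits. At day 35 all 7 smooth muscle markers measured were lower in FF than in NF (median -0.43) and than in FFab (median -0.39), with none passing, and the part of this in the MUC12 difference was not tested. In these 2 comparisons 7.71% and 6.09% of all genes had an unadjusted p under 0.05. At day 49 FF was 0.22 ± 0.30 above NF and 0.12 ± 0.30 above FFab (limma, adjusted p = 1 for each).

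MUC13, a smaller membrane mucin with EGF-like domains, had the least overlap of the 5 genes. In FF it ran from 10.54 to 11.79 at day 35 (median 11.47) and from 11.75 to 12.91 at day 49 (median 12.14). Of the 90 pairs of an older and a younger FF rabbit, the older one was higher in 89. Every older FF rabbit lay above every younger one in 0.326% of all genes, and in none of the 5 genes. How many of all genes reach 89 of 90 pairs was not computed. The MUC13 difference in FF was 0.84 ± 0.19 (interval 0.45 to 1.22, limma, adjusted p = 0.00389). In NF, levels ran from 11.07 to 12.03 at day 35 (median 11.65) and from 11.25 to 12.16 at day 49 (median 11.996). The NF difference of 0.22 ± 0.20 did not pass (limma, adjusted p = 0.995). In FFab the day 35 range was 10.81 to 12.30 (median 11.66) and the day 49 range 11.05 to 12.92 (median 11.96). This gave 0.37 ± 0.19 (limma, adjusted p = 0.613). The pattern of the group means was not that of MUC12: at day 35 FF lay only 0.22 ± 0.19 below NF and 0.18 ± 0.19 below FFab, and at day 49 it lay 0.40 ± 0.20 above NF and 0.28 ± 0.20 above FFab, of which none passed.

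AGR3, whose human protein is also an endoplasmic reticulum disulfide isomerase, ran in FF from 10.19 to 11.17 at day 35 (median 10.73) and from 11.08 to 12.26 at day 49 (median 11.66). It was higher at day 49 by 0.97 ± 0.26 (interval 0.45 to 1.48, limma, adjusted p = 0.0126). Fitted probe by probe over all 31722 probes, the 4 AGR3 probes gave 0.93 to 1.03 and each passed (limma, adjusted p from 0.0142 to 0.0213). In NF the level ran from 10.09 to 11.85 at day 35 (median 10.75) and from 10.31 to 11.79 at day 49 (median 11.23), a difference of 0.24 ± 0.27 (limma, adjusted p = 0.998). In FFab it ran from 9.59 to 12.12 at day 35 (median 11.07). These 10 rabbits left a gap: 5 lay between 9.59 and 10.54 and the others between 11.60 and 12.12. At day 49 all 9 FFab rabbits lay between 11.29 and 12.06 (median 11.53), above the 5 lower rabbits of day 35. The FFab difference was 0.61 ± 0.26 (limma, unadjusted p = 0.0217, adjusted p = 0.489).

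AGR2 did not follow its paralog. In FF it ran from 15.07 to 16.29 at day 35 (median 15.51) and from 15.07 to 16.00 at day 49 (median 15.74), a difference of 0.04 ± 0.19 (limma, adjusted p = 0.94). The interval from -0.34 to 0.43 leaves out a rise of the size fitted for AGR3. In NF the level ran from 14.71 to 15.93 at day 35 (median 15.25) and from 14.50 to 16.44 at day 49 (median 15.56). In FFab it ran from 14.79 to 16.32 at day 35 (median 15.52) and from 15.12 to 16.25 at day 49 (median 15.54). The differences were 0.29 ± 0.20 in NF and -0.02 ± 0.19 in FFab (limma, adjusted p = 0.975 and 0.991). The 5 AGR2 probes gave 0.03 to 0.05 in FF. The signal of the AGR2 probe used reached 95433 on the brightest array, with no spot flagged as saturated.

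CLCA1 had the largest SD of the 5 genes in every group but FFab at day 35, where AGR3 (0.93) and MUC12 (0.75) were above its 0.53. In FF it ran from 11.43 to 14.09 at day 35 (median 12.95) and from 11.65 to 14.11 at day 49 (median 12.35). In NF it ran from 11.28 to 14.24 at day 35 (median 12.65) and from 11.71 to 16.08 at day 49 (median 12.28), where rabbit lap205 was far above the next at 13.38. In FFab it ran from 11.48 to 13.36 at day 35 (median 12.44) and from 11.27 to 13.28 at day 49 (median 12.48). The age differences were -0.18 ± 0.39 in FF, 0.12 ± 0.40 in NF and -0.19 ± 0.39 in FFab (limma, adjusted p = 0.871, 0.998 and 0.956). The FF interval, from -0.97 to 0.61, holds changes in either direction of 1.5-fold, so a change of that size was not detectable here. The 3 probes gave -0.20 to -0.18 in FF.

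**Figure D2:**
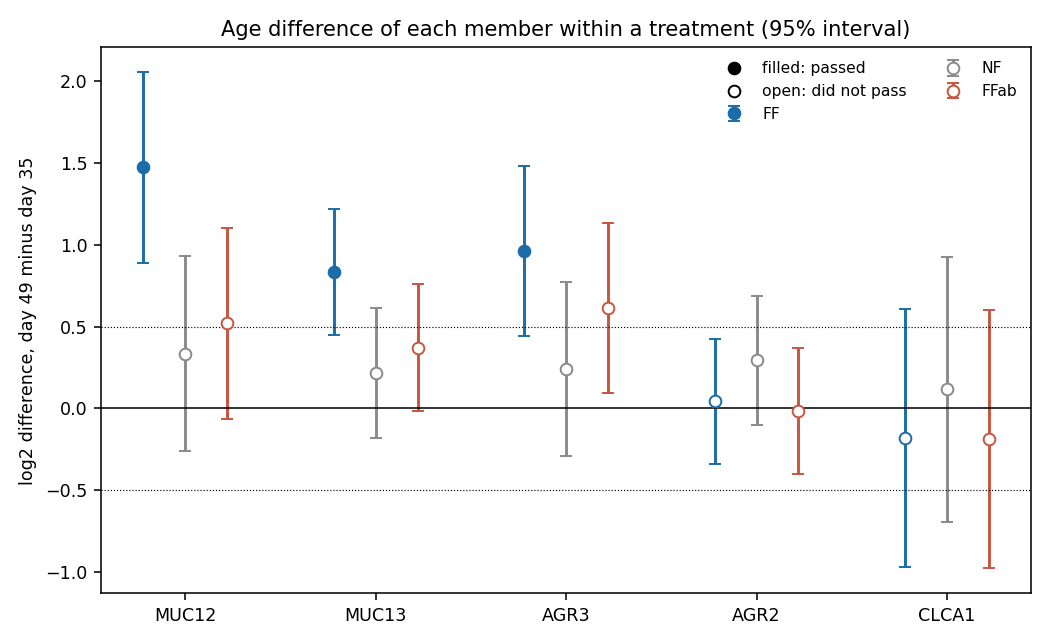
Difference between day 49 and day 35 (y axis, log2) for each gene (x axis) in FF, NF and FFab, with 95% intervals, filled where the gene passed. The 3 filled points are MUC12 (1.47), AGR3 (0.97) and MUC13 (0.84) in FF. Dotted lines mark the threshold of 0.5 in each direction.

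Ages were also compared within slides. For MUC12, MUC13 and AGR3 the older FF rabbits were higher on 9 of 9 slides, by 0.31 to 3.30 for MUC12, 0.22 to 1.28 for MUC13 and 0.13 to 2.01 for AGR3. AGR2 was higher on 6 of 9 slides and CLCA1 on 5 of 9. In NF, without rabbit 78, 8 slides held both days: MUC12 was higher at day 49 on 5 of them, MUC13 on 6 and AGR3 on 4. In FFab, MUC12 and AGR3 were higher on 7 of 9 slides and MUC13 on 4 of 9. The same arrays gave the fitted differences, so these counts are a description. The share of all genes with such counts was not computed.

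Whether the age changes differ between treatments was tested directly, and no gene passed. The MUC12 change was larger in FF than in NF by 1.14 ± 0.42 (interval 0.31 to 1.97, limma, unadjusted p = 0.00831, adjusted p = 0.86). It was larger in FF than in FFab by 0.95 ± 0.41 (limma, unadjusted p = 0.0239, adjusted p = 1). For MUC13 the FF change exceeded that in NF by 0.62 ± 0.28 and that in FFab by 0.46 ± 0.27 (limma, unadjusted p = 0.0292 and 0.0952, adjusted p = 0.999 and 1). For AGR3 these differences were 0.72 ± 0.37 and 0.35 ± 0.37 (limma, adjusted p = 0.999 and 1). These comparisons share the FF rabbits. Of the 5 members, 2 (MUC12 and MUC13) had an unadjusted p under 0.05 against NF and 1 (MUC12) against FFab. Over all 7968 genes 0% passed either test, while 4.49% had an unadjusted p under 0.05 against NF and 2.85% against FFab. A rise in FF alone is therefore not shown for any of the 3 genes.

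Averaged over the 3 treatments, MUC12 rose by 0.78 ± 0.17 and AGR3 by 0.61 ± 0.15 (limma, adjusted p = 0.00107 and 0.00395), beside 2.36% of all genes that rose, 1.08% that fell and 3.44% that passed in all. By the unadjusted p under 0.05, 3 of 5 members stood out here, beside 25.8% of all genes. MUC13 had an adjusted p of 0.0025 (limma) with a difference of 0.47 ± 0.11, just short of the threshold of 0.5. AGR2 gave 0.11 ± 0.11 and CLCA1 -0.08 ± 0.23 (limma, adjusted p = 0.61 and 0.87). Between treatments over both days, and between any pair of treatments at either day, none of the 5 genes passed. At most 0.0377% of the genes did so in any of these comparisons. By limma's unadjusted p under 0.05, MUC12 alone stood out against NF and against FFab at day 35 and MUC13 alone (0.40 ± 0.20) against NF at day 49, where 1.17% of all genes did. No member did so in the other comparisons of levels between treatments. There 2.03% of the genes had such a p between NF and FFab at day 35, and 1.81% at day 49. Between FF and FFab at day 49 it was 2.33%. Over both days it was 3.12% between FF and NF, 5.28% between FF and FFab and 3.20% between NF and FFab. For any treatment difference over both days it was 3.82%.

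To set the membrane mucins against the goblet cell products, each gene was taken relative to its mean over the 56 arrays. The genes of a kind were then averaged in each rabbit. The products were the isomerases AGR2 and AGR3 and the secreted CLCA1, without MUC2, TFF3 or FCGBP. Their mean is thus not a measure of mucus secretion. The membrane mean of FF rabbits went from -0.66 ± 0.30 (SD, n = 10) at day 35 to 0.50 ± 0.36 (n = 9) at day 49. All 10 younger FF rabbits lay below 0, and 8 of 9 older ones above it. In NF it went from -0.08 ± 0.19 to 0.19 ± 0.28, and in FFab from -0.15 ± 0.45 to 0.29 ± 0.42. The mean of AGR2, AGR3 and CLCA1 went from -0.09 ± 0.46 to 0.19 ± 0.28 in FF, from -0.14 ± 0.45 to 0.08 ± 0.67 in NF and from -0.08 ± 0.49 to 0.05 ± 0.30 in FFab. Membrane minus goblet thus shifted with age by 0.88 in FF, 0.06 in NF and 0.31 in FFab. With AGR3 taken out of the goblet mean, chosen after its values were seen, the shifts were 1.22, 0.07 and 0.55. The NF shifts include rabbit lap205 of day 49, which had the lowest difference of its group, -1.32, and -1.84 without AGR3. The highest in that group were 0.92 and 1.27. The NF shifts without this rabbit were not computed. No test was made on these means, since the genes were chosen with results known.

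**Figure D3:**
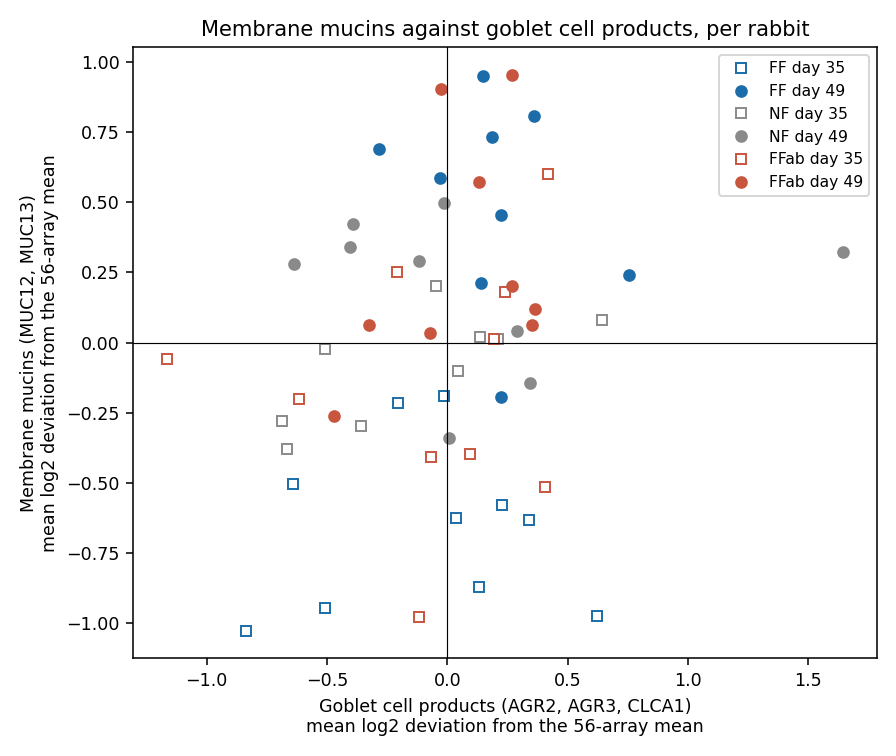
Mean of the membrane mucins (y axis) against the mean of the goblet cell products AGR2, AGR3 and CLCA1 (x axis). Both are log2 deviations from the mean of the 56 arrays, with 1 point per rabbit. All 10 FF rabbits of day 35 lie below 0 on the vertical axis and 8 of 9 FF rabbits of day 49 above it, while on the horizontal axis the FF groups overlap. The point at the far right is NF rabbit lap205 of day 49, at 1.65.

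Rabbits of the same group also differed from each other, and here the membrane mucins did not go together. After subtraction of the group means, MUC12 and MUC13 correlated at r = -0.21 over 56 arrays (Spearman rho = -0.24), with a positive r in 2 of 6 groups. AGR3 and AGR2 had the highest correlation among the members, r = 0.53 (rho = 0.49), positive in all 6 groups. MUC12 correlated with AGR2 at r = 0.42 (rho = 0.51) and with AGR3 at r = 0.31 (rho = 0.28). MUC13 was negative with each of the other 4 genes, from -0.21 to -0.28. CLCA1 with AGR2 gave r = 0.26, which fell to 0.06 without the 2 rabbits farthest from the median of AGR2. The arrays share slides and the makeup of the tissue, so these are descriptions with no test.

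The probes of 1 gene followed each other much more closely: r between probes was 0.81 to 0.99 for AGR3, 0.98 to 0.99 for AGR2 and above 0.98 for CLCA1 over the same 56 arrays.

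Each member had its own nearest genes by this measure, among 7799 other genes with no missing value. For AGR2 they were the potassium channel KCNK1 (r = 0.76), the prothrombin gene F2 (0.75) and the sulfotransferase SULT1C2 (0.73). For MUC13 the first was the membrane protein TMC5 (r = 0.65), followed by the syntaxin-binding protein STXBP6 (0.61). For MUC12 they were the ubiquitin ligase HERC4 (r = 0.68), the adaptor protein YWHAB (0.63) and annexin A1, ANXA1 (0.62). For AGR3 they were PEA15 (r = 0.69), TPPP, which binds tubulin (0.68), and the cortisone-activating enzyme HSD11B1 (0.68). For CLCA1 they were clusterin, CLU (r = 0.64), the endocytic receptor LRP2 (0.63) and the acute phase protein ORM1 (0.62). No gene was among the nearest of more than 1 member. In FF, SULT1C2, HSD11B1 and STXBP6 rose with age, by 1.69 ± 0.45, 0.94 ± 0.26 and 0.64 ± 0.16 (limma, adjusted p = 0.0129, 0.0188 and 0.00845), while none of the other neighbours named here passed.

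**Figure D4:**
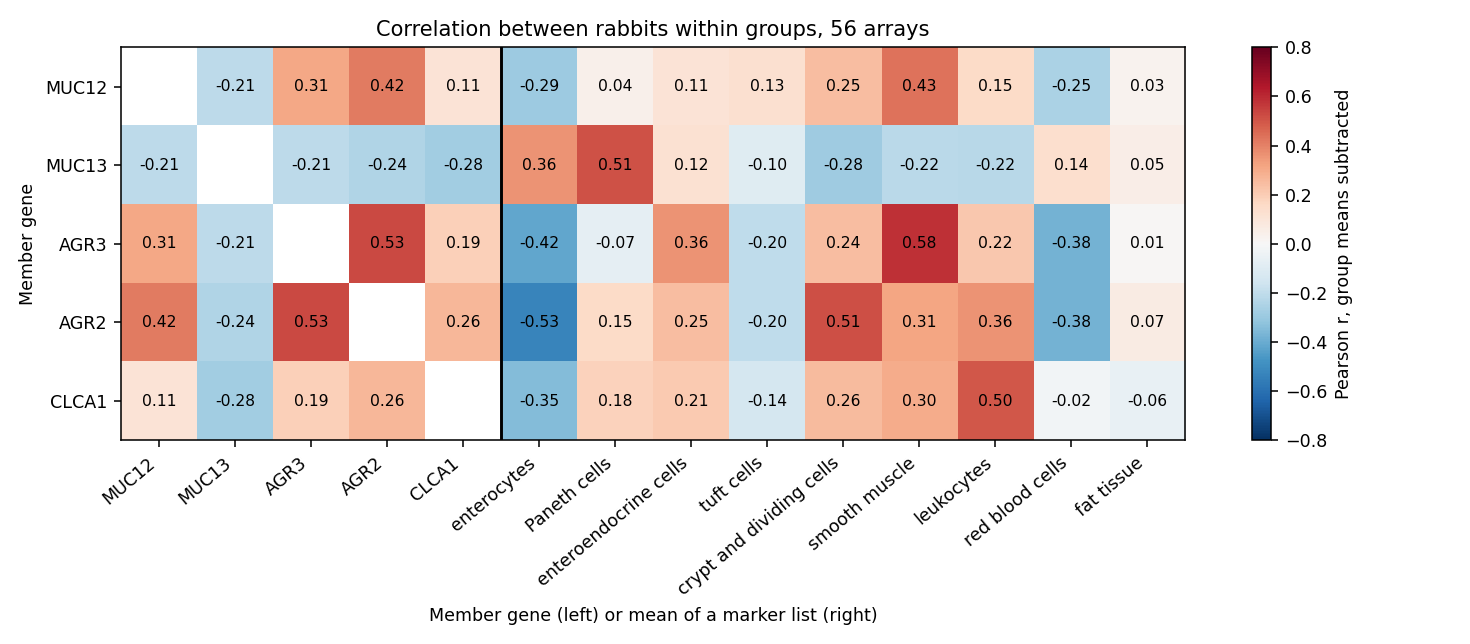
Pearson r over 56 arrays, after subtraction of the group means, between each of the 5 genes (rows) and the other genes or the mean of a list of cell type markers (columns). AGR2 and the enterocyte markers gave the lowest value (-0.53), and AGR3 and the smooth muscle markers the highest (0.58).

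The markers of other cells differed between the ages and went with the members to unequal degrees. Of 11 enterocyte markers measured, 3 rose in FF with age: ALPI, the intestinal alkaline phosphatase, by 1.13 ± 0.28, the peptidase DPP4 by 0.83 ± 0.21 and the glucose transporter SLC5A1 by 0.80 ± 0.19 (limma, adjusted p = 0.0083, 0.00775 and 0.00429). The median of the 11 was 0.28, beside -0.01 over all genes, with 8 of 11 higher at day 49. No enterocyte marker passed in the other treatments, where the median was 0.10 in NF (9 of 11 higher) and 0.33 in FFab (8 of 11 higher). The summed signal of the 11 ran from 719028 to 1461210 in FF at day 35 and from 907418 to 1038190 at day 49. Between rabbits of a group, the enterocyte mean correlated with MUC13 at r = 0.36, and negatively with MUC12 (-0.29), AGR3 (-0.42), CLCA1 (-0.35) and AGR2 (-0.53). None of 7 smooth muscle markers passed in FF, but all 7 were higher at day 49, with a median of 0.36, and their summed signal ran from 82094.7 to 236652 at day 35 and from 146853 to 381228 at day 49. In NF 0 of these 7 were higher at day 49 (median -0.16) and in FFab 4 of 7 (median 0.02). The smooth muscle list correlated with AGR3 at r = 0.58, MUC12 at 0.43, AGR2 at 0.31 and CLCA1 at 0.30, and negatively with MUC13 (-0.22). The 11 enterocyte markers were those measured of 18 listed, and the 7 smooth muscle markers of 10. The part of tissue makeup in the rises of MUC12, MUC13 and AGR3 was not tested.

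Other lists gave the state of further cells in FF. Of the Paneth cell list, with 2 of 8 markers measured, REG3G, an antimicrobial lectin that enterocytes make too, rose by 3.95 ± 0.77 (limma, adjusted p = 0.000666), and the Paneth mean correlated with MUC13 at r = 0.51. Of the fat tissue list (3 of 8 measured) LPL and FABP4 rose by 1.68 ± 0.28 and 1.71 ± 0.47, and of the red blood cell list (4 of 9 measured) CA1 and EPOR fell, at -2.49 ± 0.67 and -2.22 ± 0.70 (limma, adjusted p = 7.78e-05, 0.015, 0.0134 and 0.038). CA1 is also made by intestinal epithelium. These markers had the same sign in the other treatments without passing there: REG3G gave 2.14 in NF and 2.61 in FFab, FABP4 2.12 and 1.34, LPL 1.26 and 1.15, CA1 -1.53 and -0.80, and EPOR -1.28 and -1.15. None of 6 enteroendocrine, 3 tuft cell, 8 crypt or 10 leukocyte markers passed in FF. There 0 of 8 crypt markers were higher at day 49 (median -0.10), 1 of 3 tuft cell markers (median -0.49, with 1 under an adjusted p of 0.05 in limma but short of the size), 3 of 6 enteroendocrine markers (median -0.03) and 7 of 10 leukocyte markers (median 0.11). Over the 3 treatments ITLN2 of the Paneth list and NTS of the enteroendocrine list rose too, by 1.38 ± 0.32 and 0.75 ± 0.19, and ALAS2 of the red blood cell list fell, at -0.62 ± 0.17 (limma, adjusted p = 0.00178, 0.00452 and 0.00882). In this comparison 3 of 6 enteroendocrine markers were higher at day 49 (median -0.01). So were 2 of 2 Paneth markers (median 2.14) and 1 of 4 red blood cell markers (median -1.08).

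Goblet cells were also read from their transcription factors. SPDEF, which drives goblet cell maturation, ran in FF from 10.18 to 10.89 at day 35 (median 10.49) and from 10.15 to 10.67 at day 49 (median 10.30). Its age difference was -0.17 ± 0.13 (limma, adjusted p = 0.523), and those of ATOH1, the master factor of secretory cells, and CREB3L4 were -0.07 ± 0.14 and -0.14 ± 0.17 (limma, adjusted p = 0.854 and 0.712). The Notch ligand JAG1 gave 0.32 ± 0.24 and the secretory pathway factor CREB3L1 0.10 ± 0.23 (limma, adjusted p = 0.481 and 0.874). The CREB3L1 signal was low, with FF medians of 4.16 at day 35 and 4.17 at day 49, which limits what its difference can show. None of the 6 genes measured of 16 listed passed in any comparison, and their median in FF was -0.01, as over all genes.

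Of other mucus proteins, few were on the array. CD164, a sialomucin of membranes, was the only other membrane mucin of 10 listed and gave -0.19 ± 0.12 in FF (limma, adjusted p = 0.388). Of 19 other secreted mucus proteins 4 were measured and none passed. The trefoil peptide TFF1 had -1.14 ± 0.52 in FF (limma, adjusted p = 0.185), with day 35 values from 7.97 to 12.13 and day 49 values from 7.98 to 9.05. The protease inhibitor WFDC2 gave 0.47 ± 0.37 and CLCA2, a relative of CLCA1, -0.33 ± 0.35 (limma, adjusted p = 0.512 and 0.662). The CLCA2 signal was low, with FF medians of 5.35 at day 35 and 4.76 at day 49.

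Among genes for protein folding, 1 of 13 measured passed in FF. The chaperone HSPA5, which binds unfolded proteins in the endoplasmic reticulum, ran from 12.39 to 13.41 at day 35 (median 12.96) and from 12.13 to 13.13 at day 49 (median 12.39). It fell by 0.53 ± 0.17 (limma, adjusted p = 0.0442), close to both thresholds, and this call was lost under 6 of 15 other ways to process the data and without 17 of 56 rabbits. In NF and FFab the HSPA5 difference was 0.11 ± 0.18 and -0.33 ± 0.17 (limma, adjusted p = 0.998 and 0.608). The stress sensor ATF6 gave 0.29 ± 0.14 and the disulfide isomerase PDIA5 -0.09 ± 0.06 in FF, and SEL1L, which helps to clear misfolded proteins, 0.10 ± 0.09 (limma, adjusted p = 0.216, 0.355 and 0.551). The median of the 13 was -0.01.

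Of 15 enzymes of mucin O-glycosylation measured, none passed in FF, 12 of 15 were higher at day 49 and the median was 0.24. GCNT1, which adds a branch to the core sugar, gave 0.42 ± 0.18, GALNT12, which starts the chains, 0.24 ± 0.10, and the sialyltransferase ST3GAL4 1.01 ± 0.46 (limma, adjusted p = 0.144, 0.158 and 0.189). Over the 3 treatments GCNT1, the sulfotransferase CHST4 and GALNT12 had adjusted p of 0.00681, 0.0366 and 0.0471 (limma). Their differences of 0.39 ± 0.10, 0.27 ± 0.09 and 0.17 ± 0.06 stayed under the threshold of 0.5. These were 3 of the 15, beside 13.5% of all genes with an adjusted p under 0.05 at any size.

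Of 14 genes for mucus release and unpacking, 1 passed in FF. SLC26A3, the exchanger of chloride for bicarbonate in the brush border, ran from 10.75 to 12.24 at day 35 (median 11.40) and from 11.35 to 12.50 at day 49 (median 12.002). It rose by 0.61 ± 0.17 (limma, adjusted p = 0.0207), against 0.19 ± 0.18 in NF and 0.11 ± 0.17 in FFab (limma, adjusted p = 0.995 and 0.947). The call was lost when only the arrays of the FF groups were fitted, and without FF rabbit lap209 of day 49 (0.54). The difference of these changes did not pass (limma, adjusted p = 0.999 against NF and 1 against FFab). The vesicle protein VAMP8 gave 0.31 ± 0.12 in FF and MEP1A, a subunit of the protease meprin, 0.54 ± 0.26 (limma, adjusted p = 0.105 and 0.22). Over the 3 treatments VAMP8, MEP1A, the goblet cell protease CAPN9 and SLC26A3 had adjusted p of 0.0152, 0.0288, 0.0297 and 0.0386 (limma), each with a difference of 0.24 to 0.47. Over the 3 treatments 4 of the 14 thus had an adjusted p under 0.05 at any size, beside 13.5% of all genes. The median of the 14 in FF was 0.12.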

How the data were processed

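Per the labels, total RNA of the ileum was labelled with Cy3 and hybridized to 57 rabbit arrays, 1 per rabbit. The authors deposited the intensity of each of 62976 spots (Agilent Feature Extraction, 10.7.3.1 in their notes and 10.10.1.1 in the file headers), of which 1319 were controls, with flags per spot, plus quantile-normalized log2 values for 33284 probes. The background-subtracted processed intensity was used here: outlier spots (0.57%) were dropped, spots of a probe averaged, and log2 values quantile normalized. The filter asked, within any group, for 75% of arrays with 50% or more of a probe's spots well above background, and 31722 probes passed. Probes were named through RefSeq accessions (11474), gene identifiers (8929), the study's tables of differentially expressed genes (137) or gene names (63), and 21486 had no single gene. The 137 come from lists that the study called in these same data, which can raise the shares given over all genes.

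A gene was read from its probe of median level. limma fitted 1 mean per group over 56 arrays, sharing 1 estimate of the spread, and 16 contrasts. Genes named from the mucus lists are up to 3 per list with the smallest p in FF and over the treatments, and all that passed. Marker genes are those that passed beside a member, up to 3 per list, and neighbours the 3 of highest correlation, of which 1 is not reported here. The members and lists were chosen with earlier results of these data known. The fit was tested on simulated data. The alternatives changed the background correction, the scaling, the deposited values, the filter, the arrays, the slide as a block, array weights and the probe rule. Software: R 4.3.3, limma 3.58.1 and statmod 1.5.0. Nests and sex entered no test.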

Additional observations from a re-analysis of the deposited data

Results flagged for a closer look

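Of 30 sets of values (5 genes in 6 groups), 2 held a rabbit far from the others by Dixon's criterion, where chance alone gives about 1 in 20. NF rabbit lap205 of day 49 had the highest CLCA1 level, 16.08, against 13.38 for the next. It also had the highest AGR2 and MUC12 levels of its group, 16.44 and 9.80, and the lowest MUC13 level, 11.25. Without it the CLCA1 difference between the ages in NF was -0.28 in place of 0.12, and neither passed.

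FFab rabbit lap116 of day 35 had a MUC12 level of 6.83, against 8.25 for the next lowest. In none of the other 4 genes was it the lowest or the highest of its group. Without it the MUC12 difference in FFab was 0.33 in place of 0.52, and FF lay below FFab at day 35 by 1.02 in place of 0.83. None of these passed.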

How the results depend on the processing

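MUC12, MUC13 and AGR3 rose in FF under each of 13 other ways to process the data, under 2 more added after the data were seen (outlier spots kept, and all 57 arrays with the slide as a block), and without each of 56 rabbits in turn. Over all these settings the FF difference was 1.23 to 1.61 for MUC12, 0.74 to 0.89 for MUC13 and 0.89 to 1.03 for AGR3, and no member passed in NF, in FFab or between treatments. The count over the 3 treatments was 2 to 3, since MUC13 crossed 0.5 with array weights (0.51) and without FFab rabbit lap96, lap185 or lap197 (0.50 to 0.51). The count of other mucus genes that passed in FF was 1 in place of 2 with the 75th percentile scaling, no filter on dim probes, all 57 arrays, the same with the slide as a block, the probe of highest level, the mean of the probes, or only the groups compared (there SLC26A3 was lost, in the others HSPA5). It was 0 to 2 with rabbits left out, and 0 without FF rabbit lap209 of day 49. Differences near 0 changed sign: AGR2 in FFab (0.0228 with the 75th percentile scaling, 0.0191 with the deposited table, 0.0356 with array weights, 0.0021 with 57 arrays and the slide, and -0.1042 to 0.0679 with rabbits left out), AGR2 in FF (-0.019 to 0.1168 with rabbits left out) and CLCA1 in NF (-0.2842 to 0.305). Of the differences of MUC12, MUC13 and AGR3 that did not pass, some moved by over 1.5 times without passing: MUC12 in NF (0.14 with array weights to 0.53 with 57 arrays and the slide) and in FFab (0.33 without lap116), AGR3 in NF (0.14 to 0.36 with rabbits left out), FF minus NF (-0.29 to -0.13) and FF minus FFab (-0.26 to -0.08) at day 35 for MUC13 with rabbits left out, and the change in FF minus that in FFab for MUC13 (0.25 to 0.59 over all settings) and AGR3 (0.23 to 0.51). The genes passing in FF numbered 273 to 432 against 343, over the treatments 170 (normexp) to 352 against 274, in NF 0 to 16 against 3 and in FFab 0 to 32 against 6. The cause of these shifts was not tested. No paired analysis was possible because each rabbit number occurs in only 1 group. The number of rabbits and their spread limit what could be detected, most of all for CLCA1. MUC2, TFF3 and FCGBP were not analysed here.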

Other observations

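NF rabbit lap78 of day 35, normalized with all 57 arrays, lay outside the range of the other NF rabbits of that day in 4 of the 5 genes. Its MUC12 level was 6.74, against 7.83 to 9.36 in the others, and its CLCA1 level 10.53, against 11.28 to 14.24. AGR2 at 16.32 and MUC13 at 12.06 lay above the highest of the others, 15.93 and 12.03. AGR3 at 10.45 lay within their range.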
